A study of Mus musculus with 4 samples.

Results

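The regions described here are stretches of open chromatin away from promoters that were strong in both libraries of microglia labelled IRF8KO and had no peak at all in either WT library. Their members were chosen from the measured values. Distinct autosomal peaks with a pileup (the depth of transposase cut sites at the summit) of at least 0.5 per 1000000 tags were merged over the 4 libraries, and a merged region was kept when such a peak overlapped it in both IRF8KO lists, no row of either WT list overlapped it, and it lay more than 1 kb from every protein-coding or lncRNA transcription start site (TSS). The rule kept 725 of 54106 merged regions, which is 2.07% of the 35024 strong regions that were distal in this sense. They are called KO-only distal regions below, and pileup per 1000000 tags is written PPM. The mirror rule gave 1814 WT-only distal regions, or 5.18%, and 10856 distal regions were strong in all 4 libraries and are called shared. The KO-only and WT-only counts do not measure gains against losses on equal terms, since IRF8KO replicate 1 had the lowest signal per tag. Without that library the KO-only count was 1927, and with pileup scaled by the median over shared regions it was 1071.

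The assay was ATAC-seq, in which Tn5 transposase inserts sequencing adapters into accessible DNA. All 4 libraries came from untreated microglia, the resident macrophages of the brain, isolated without enzymes from 3-month-old mice of strain C57BL/6 and sorted by flow cytometry. The genotype was WT in 2 libraries and IRF8KO in 2, and amplification took 12 PCR cycles throughout. The design of the IRF8KO allele is not given in the sources used here, and the labels do not say that the 2 replicates of a genotype came from separate mice, so the spread between replicates may be technical.

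IRF8, a DNA-binding protein of the interferon regulatory factor (IRF) family, is needed for the normal development of macrophages and microglia. On its own it binds DNA poorly. With the ETS factor PU.1 it binds composite ETS-IRF elements, and with BATF and JUN proteins it binds AP-1-IRF elements. AP-1 dimers of FOS, JUN and related proteins, C/EBP factors and RUNX factors bind distal enhancers in many myeloid cells.

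The 12 sequences below are examples chosen because they hold matches, so they do not show a typical summit of the class. In windows of 50 bp each side of the summit, AP-1, CEBP and RUNX letters occurred in 20.6%, 15.2% and 9.52% of the 725 regions. Matches to these 3 kinds of letters were more frequent in this class than in shared or WT-only regions. PU.1 and CTCF letters, given further on with their shares, were less frequent than in shared regions. Each spans the summit with 50 bp on either side in the GRCm38 reference, plus strand, read from the RefSeq GRCm38.p6 assembly, and capitals mark the named matches. The first 5 are those of the 20 strongest regions that held a match of the 3 kinds within this window, after 2 regions on a chromosome from which no sequence is shown (nearest to Zfp608 and Colec12) and 1 close to a UTR were set aside. The Scgb2b26 sequence also holds the ETS-IRF letters, GGAA and GAAA with 2 free bases between them, which were marked wherever they occurred in the 12.
Nt5e region, chr9:88273495-88273595, RUNX: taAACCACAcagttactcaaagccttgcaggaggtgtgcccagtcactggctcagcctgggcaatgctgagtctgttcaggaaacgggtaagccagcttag
Scgb2b26 region, chr7:33900205-33900305, ETS-IRF and RUNX: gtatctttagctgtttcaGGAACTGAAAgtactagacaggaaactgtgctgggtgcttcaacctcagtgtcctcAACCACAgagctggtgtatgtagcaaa
Fam129b region, chr2:32867504-32867604, AP-1: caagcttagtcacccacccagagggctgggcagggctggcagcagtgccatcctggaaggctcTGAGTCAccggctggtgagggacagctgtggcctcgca
Dab2 region, chr15:6411480-6411580, AP-1: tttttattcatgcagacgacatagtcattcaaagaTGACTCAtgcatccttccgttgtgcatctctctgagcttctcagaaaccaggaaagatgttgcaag
Cop1 region, chr1:159186936-159187036, RUNX: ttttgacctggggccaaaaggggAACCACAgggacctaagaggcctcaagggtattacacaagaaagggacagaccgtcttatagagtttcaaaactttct

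The other 7 were chosen after the values were seen, from regions below the first 20 whose matches lay wholly within 50 bp of the summit. They are the strongest such regions not already shown with a CEBP match (2 regions), AP-1 and CEBP matches (1), all 3 (1), or an AP-1 match that directly adjoins the IRF letters GAAA (3). Stronger regions whose matches lay farther from the summit, such as the adjoining one nearest to Bcl2l1, are not shown. The adjoining AP-1-IRF letters are over-represented among the examples, since they occurred in 1.52% of KO-only windows. Capitals mark all matches of these kinds and of ETS-IRF, and neighbouring matches can run together.
Lrrc9 region, chr12:72490222-72490322, CEBP: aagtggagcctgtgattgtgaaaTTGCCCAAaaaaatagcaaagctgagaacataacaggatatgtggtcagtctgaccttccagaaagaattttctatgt
Slc22a22 region, chr15:57037329-57037429, RUNX and CEBP, overlapping: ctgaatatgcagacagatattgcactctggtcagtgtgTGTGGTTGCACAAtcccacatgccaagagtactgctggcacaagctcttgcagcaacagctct
Tnfsf18 region, chr1:161482366-161482466, AP-1 and CEBP: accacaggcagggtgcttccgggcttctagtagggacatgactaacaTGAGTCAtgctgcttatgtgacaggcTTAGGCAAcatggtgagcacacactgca
Nectin3 region, chr16:46587243-46587343, AP-1-IRF adjoining, CEBP and RUNX: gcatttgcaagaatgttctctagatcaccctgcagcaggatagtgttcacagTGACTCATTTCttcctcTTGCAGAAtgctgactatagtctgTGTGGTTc
2610001J05Rik region, chr6:13874120-13874220, AP-1-IRF adjoining: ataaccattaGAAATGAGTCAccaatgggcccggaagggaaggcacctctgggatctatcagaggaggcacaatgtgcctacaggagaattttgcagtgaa
Bmper region, chr9:23567211-23567311, AP-1-IRF adjoining and RUNX: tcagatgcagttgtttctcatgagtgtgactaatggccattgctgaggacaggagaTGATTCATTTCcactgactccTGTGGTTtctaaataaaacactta
Ccl8 region, chr11:82139551-82139651, AP-1-IRF adjoining: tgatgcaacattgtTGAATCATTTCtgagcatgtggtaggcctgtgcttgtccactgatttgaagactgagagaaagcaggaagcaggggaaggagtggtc

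Each sequence is named by its nearest protein-coding gene, which says nothing of the gene a region acts on. The Lrrc9 region lay in an intron at 5.21 kb from the TSS, with 1.71 and 2.16 PPM in IRF8KO replicates 1 and 2. The Slc22a22 region lay 228 kb away, with 1.69 and 3.70. At the Tnfsf18 region, 12.1 kb from the TSS, the values were 1.64 and 3.32, and at the Nectin3 region, 88.5 kb away, 1.31 and 3.26. The remaining AP-1-IRF examples had 1.10 and 2.58 at the 2610001J05Rik region, 0.749 and 2.02 at the Bmper region, and 0.533 and 0.831 at the Ccl8 region.

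Whole-library values bear on all of these numbers. The WT libraries held 46948938 and 48896408 tags with a tag size of 50 bp, and the IRF8KO libraries 78793572 and 66224648 tags of 49 bp, so depth and tag size cannot be told apart from genotype. The median pileup over shared distal regions was 1.66 and 1.29 PPM in WT and 1.02 and 1.60 in IRF8KO replicates 1 and 2, which made IRF8KO replicate 1 the library with the lowest signal per tag. Of the 10 microglia marker genes fixed for the check of the label, 10 and 10 had a strong promoter peak in the WT libraries and 8 and 9 in the IRF8KO libraries, with summed levels of 27.3, 19.6, 11.1 and 18.7 PPM, and Sall1, a transcription factor of microglia, was the marker without one in both IRF8KO libraries. Of 7 border macrophage markers, 0 and 0 had a strong promoter peak in WT and 4 and 4 in IRF8KO (Mrc1, Cd163, Pf4 and Ms4a7), with summed levels of 2.94 and 4.82 PPM. Lyve1, F13a1 and Cd38 had no strong one in any library, and the Pf4 promoter had weaker WT peaks of 0.447 and 0.327 PPM. Neutrophil markers had 1 strong promoter of 7 in WT replicate 1 (Ltf) and none in the other libraries, the monocyte markers 1 of 5 (Vcan) in each of the 4, and B or T cell and neuron markers none. Endothelial markers had strong promoters at 3 and 3 of 5 in WT and 2 and 2 in IRF8KO (summed levels 7.43, 6.26, 1.18 and 1.81 PPM), astrocyte markers at 1 of 6 in each library, and oligodendrocyte markers at 2 and 3 of 6 in WT and 0 and 1 in IRF8KO. In a bulk library, more cells of a type and more accessible chromatin per cell cannot be told apart.

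The KO-only distal regions were of moderate strength, with a short tail of strong ones. In IRF8KO replicate 1 their pileup ran from 0.508 through a median of 0.711 to 5.44 PPM, and in IRF8KO replicate 2 from 0.513 through 1.12 to 7.55. The raw pileup at the summit ranged from 40 to 429 in replicate 1 and from 34 to 500 in replicate 2. Replicate 2 was the higher in 683 of 725 regions, and its ratio to replicate 1 had a median of 1.497, beside 1.51 over shared distal regions. Both libraries reached 1 PPM at 164 regions, 2 at 14 and 3 at 6. The log2 values of the 2 libraries had a Pearson r of 0.83 over the 725 regions, which share the thresholds and the peak caller.

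**Figure D1:**
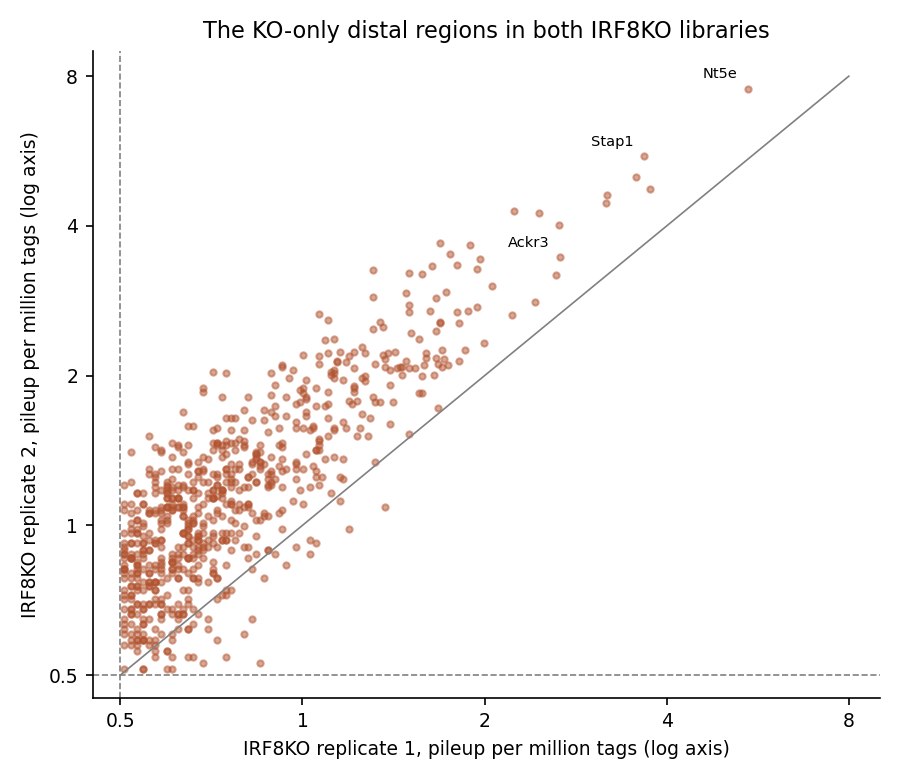
Pileup in PPM of the 725 KO-only distal regions in IRF8KO replicate 1 (horizontal, log axis) against IRF8KO replicate 2 (vertical, log axis), 1 point per region, with dashed lines at the threshold of 0.5 and a solid line of equality. Most points lie above the line of equality, and the Nt5e region stands farthest out at 5.44 and 7.55.

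The summits in the 2 libraries lay within 20 bp of each other in 535 regions and more than 100 bp apart in 54. The deposited fold enrichment over local background had a median of 9.43 in replicate 1 and 11.5 in replicate 2. It was 10 or more in both libraries at 328 regions and under 5 in at least 1 library at 172. Of those 172 regions, 164 lay within 5 kb of a region strong in all 4 libraries, against 145 of the other 553. Regions of low enrichment thus lay mostly beside a region open in both genotypes. The local background spans 10 kb, so a strong peak within 5 kb can lower the fold enrichment, and part of this contrast is built into the measure.

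At the threshold, the weakest members were 26 regions tied at 0.508 PPM in IRF8KO replicate 1, with 0.513 to 1.21 in replicate 2. Plaur, Trpm1, Mef2a, Chd2 and Lamp1 are the nearest genes of 5 of them, taken by genome order, with 0.634 to 0.831 in replicate 2. Just outside were 5 regions nearest to Sfi1, Pgs1, Slc10a1, Bcl2l11 and Lyzl4, with 0.498 in replicate 2 and 0.508 to 0.635 in replicate 1. The members nearest to a TSS lay 1047, 1059 and 1068 bp from it (Carhsp1, Homer1 and Cluh), and the first regions left out lay at 987, 983 and 969 bp (C1qtnf3, Dpp9 and Anapc15). A further 131 KO-only regions were promoter-proximal, at 1 kb or less.

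The absence of a WT row was set against what the WT depth allowed. With the local background of the IRF8KO libraries scaled to WT tag numbers, a row at the deposited p cutoff of 0.01 would have needed a median pileup of 11 in each WT library. The lower IRF8KO level would have given a median of 32.8 in WT replicate 1 and 34.1 in WT replicate 2. At 14 regions in each WT library the projected pileup did not exceed the needed one, so there a region of equal strength could have been missed. It exceeded the needed pileup by more than 2 times at 560 and 564 of the 725 regions, and at the rest counting noise could also have removed a WT row. Among the 14311 distal regions strong in both IRF8KO libraries, 75.9% were strong in both WT libraries, 1708 had a WT row that was strong in neither, and 725 had no WT row. Of the 1708, 416 had a row in exactly 1 WT library.

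The strongest region was an intergenic peak at chr9:88273270-88273750 (GRCm38), 53.4 kb from the TSS of Nt5e, which encodes the ectoenzyme that forms adenosine outside cells. Its pileup was 5.44 and 7.55 PPM (6.50 ± 1.49, SD, n = 2). The next lay at chr13:88459519-88460068, 361 kb from Edil3, a secreted integrin-binding protein, with 3.76 and 4.74 (4.25 ± 0.696, SD, n = 2). The third lay at chr5:86078608-86079170 in an intron of Stap1, a signalling adaptor of blood cells, with 3.67 and 5.53 (4.60 ± 1.31, SD, n = 2). All 3 stood above the median of shared distal regions in both IRF8KO libraries.

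The strongest members did not gather at one kind of gene. The intronic 5730480H06Rik region had 3.55 and 5.01 PPM. A region 14.1 kb from Serpinb2, an inhibitor of plasminogen activators, had 3.19 and 4.61, and one in an intron of Serpina12, an adipokine of the serpin family, had 3.17 and 4.44. A region 21.5 kb from Ackr3, a scavenging receptor for chemokines, had 2.67 and 3.46. An exonic region of Psat1, an enzyme of serine synthesis, had 2.65 and 4.02, and an intronic one of Acaca, which catalyses the committed step of fatty acid synthesis, had 2.63 and 3.19. Dlgap1, a scaffold of synapses, held an intronic region with 2.46 and 4.24.

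The remaining 10 of the first 20 had 1.88 to 2.42 PPM in replicate 1. They lay nearest to Klf2, a zinc-finger factor of quiescent leukocytes and endothelium, Scgb2b26, 1700021F07Rik, Zfp608, Fam129b, Dab2, an endocytic adaptor, Cop1, an E3 ubiquitin ligase, Tomm20, a mitochondrial import receptor, Colec12, a scavenger receptor, and Syne1, a nuclear envelope protein. The Klf2 region had a fold enrichment of 6.55 and 8.07, the lowest of the 20. Among the 20, 10 were intergenic, 9 intronic and 1 exonic, and 6 lay more than 50 kb from any protein-coding TSS.

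By position the class had the intron share of shared regions, while more of it lay far from any TSS. Summits of 389 regions (53.7%, 95% Wilson interval 50.02 to 57.3) fell in introns, 301 (41.5%) between genes and 35 (4.83%) in exons, and the intron share was 53.7% in shared and 56.3% in WT-only distal regions. The intergenic share was 40.2% in shared and 36.3% in WT-only regions, and the exon share 6.11% and 7.39%. A median of 10316 bp separated them from the nearest TSS, against 9146 bp in shared and 10275 bp in WT-only regions. Beyond 50 kb lay 14.9%, against 8.43% of shared, 13.9% of WT-only and 10.5% of all strong distal regions. The TSS distance is part of the rule only through its lower bound. The median length was 361 bp (77 to 877), against 456 bp in shared and 279 bp in WT-only regions. The mean GC content of the summit window, 100 bp on each side, was 47.1%, against 50.7% in shared, 47.7% in WT-only and 49.2% in all strong distal regions.

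Matches to AP-1, CEBP and RUNX letters were more frequent in the KO-only windows than in either comparison class. Each summit window was searched on both strands. The AP-1 letters TGANTCA occurred in 210 of 725 windows (29.0%, 25.8 to 32.4), against 12.1% of shared, 8.82% of WT-only and 11.4% of all strong distal windows. The CEBP letters TTGCNNAA occurred in 205 (28.3%, 25.1 to 31.7), against 12.6%, 8.05% and 12.2%. The RUNX letters TGTGGTT occurred in 109 (15.0%, 12.6 to 17.8), against 8.18%, 5.18% and 7.51%. These shares are descriptions over regions, which are not replicates, and the leaning was known from earlier results of these data. A match is not a bound site.

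Letters of PU.1, the ETS-IRF composite and the interferon response element were less frequent, though some intervals overlapped. The PU.1 letters GAGGAAGT occurred in 6.48% of KO-only windows (4.91 to 8.51), against 16.2% of shared and 8.88% of WT-only windows (7.65 to 10.3). The ETS-IRF composite, GGAA and GAAA with 2 free bases between them, occurred in 2.62% (1.68 to 4.06), against 5.85% and 27.6%. The interferon response element, GAAA and GAAA in the same spacing, occurred in 2.76% (1.79 to 4.22), against 4.14% (3.78 to 4.53) and 7.17%. The ETS core CCGGAA occurred in 4.83%, between the 5.72% of shared and the 2.98% of WT-only windows. The CTCF motif, that of a factor which organises chromatin loops, occurred in 0.828% against 6.25% of shared windows. The MAF half-site TGCTGAC, which can overlap an AP-1 match by some of its letters, occurred in 9.52%, against 7.83% and 4.19%.

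**Figure D2:**
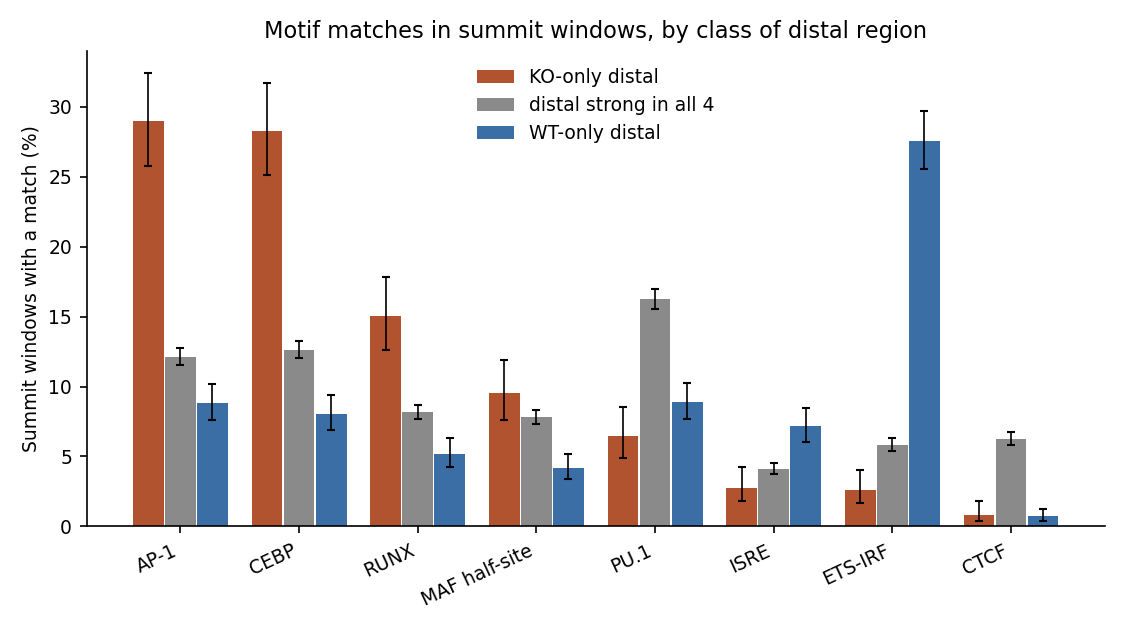
Share of summit windows, 100 bp on each side, with a match (vertical, percent) for 8 named motifs (horizontal) in KO-only, shared and WT-only distal regions, with 95% Wilson intervals as error bars that cover counting over regions only. AP-1 and CEBP bars of the KO-only class reach 29.0% and 28.3%, and the ETS-IRF bar is highest in the WT-only class at 27.6%.

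Of the 725 windows, 414 (57.1%) held at least 1 of the 3 leading motifs, against 29.7% of shared and 20.6% of WT-only windows. AP-1 and CEBP matches stood together in 54 windows (7.45%), against 1.34% of shared windows, and all 3 in 11 (1.52%), against 0.101%. The adjoining AP-1-IRF motif, GAAA directly before the AP-1 letters and so always also an AP-1 match, occurred in 11 windows (1.52%), against 0.230% of shared and 0.0551% of WT-only windows. The spaced AP-1-IRF motif, with TTTC at 4 free bases before the AP-1 letters, occurred in 3 windows (0.414%), against 0.212% of shared and 0.551% of WT-only windows. The 11 adjoining matches lay nearest to Tomm20, Bcl2l1, Nectin3, 2610001J05Rik, Bmper, Sdcbp, Phlda1, Pde4d, Akap7, Ccl8 and Tcim. Of the 237 AP-1 matches in KO-only windows, 83.1% were of the form TGACTCA on one strand or the other, against 80.1% in shared and 64.9% in WT-only windows.

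The matches sat close to the summits. Within 50 bp of the summit the AP-1 letters had a density of 2.25 per kb of sequence, which was 5.54 times that at 200 to 300 bp away. The same ratio was 2.33 in shared regions. For CEBP the ratio was 3.93 against 1.64, and for RUNX 3.77 against 2.04. The densities at 200 to 300 bp were close between the classes, at 0.407 and 0.334 AP-1 matches per kb, 0.441 and 0.431 CEBP matches, and 0.290 and 0.257 RUNX matches.

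**Figure D3:**
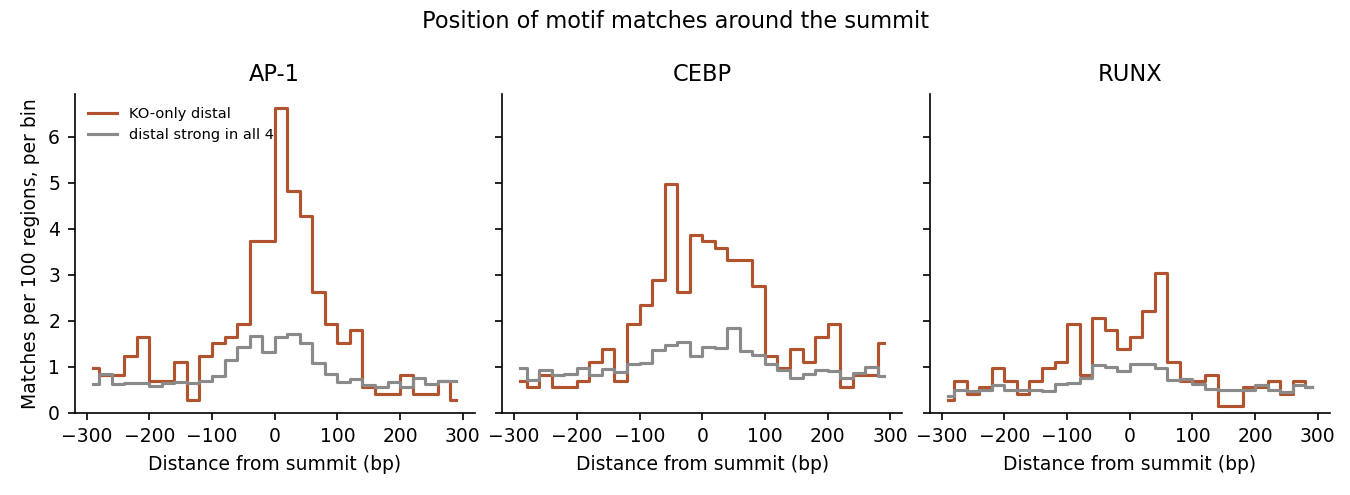
Matches per 100 regions in bins of 20 bp (vertical) by distance from the summit in bp (horizontal) for AP-1, CEBP and RUNX letters, in KO-only and shared distal regions. The AP-1 line of the KO-only class rises to 6.62 matches per 100 regions just beside the summit.

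The shares were also set against base composition and level, which differ between the classes. In windows with a GC content of 50% and over, AP-1 letters occurred in 33.2% of 220 KO-only and 11.4% of 5722 shared windows, and in windows under 45% in 23.9% of 264 and 11.9% of 1960. CEBP letters occurred in 21.8% against 9.84% of the GC-rich and 37.1% against 16.7% of the GC-poor windows, and RUNX letters in 16.4% against 7.06% and 12.9% against 9.64%. The KO-only share was the higher in each of these comparisons, although the RUNX intervals met in the GC-poor windows. Among regions whose lower IRF8KO pileup was 0.5 to 0.7 PPM, AP-1 letters occurred in 28.5% of 365 KO-only and 9.13% of 2805 shared windows. Among those at 1 PPM and over they occurred in 30.5% of 164 and 14.1% of 5494.

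Within the class, level did not go with AP-1 letters, while the shares with CEBP and RUNX letters were lowest among the weakest regions, with overlapping intervals. Regions with and without AP-1 letters both had a median of 0.711 PPM in replicate 1, and 1.11 and 1.12 in replicate 2. With CEBP letters the medians were 0.736 and 1.18, and without them 0.698 and 1.09. CEBP letters occurred in 36.0% of the 164 regions at 1 PPM and over (29.0 to 43.6) and in 25.8% of the 365 weakest (21.5 to 30.5). With the class split by level into 3 parts, RUNX letters occurred in 16.1% of the 242 strongest regions (12.02 to 21.3), 17.8% of the 242 in the middle (13.5 to 23.1) and 11.2% of the 241 weakest (7.81 to 15.8). The 172 regions of low enrichment held CEBP letters in 33 and AP-1 letters in 43, against 172 and 167 of the other 553.

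The regions were spread over many genes. The 725 regions had 615 different nearest protein-coding genes, of which 537 had a single one, and 413 of the 615 also had a shared distal region. Within 50 kb of another member lay 159 regions, in 69 groups, 14 of which held 3 or more. The groups with most members were 6 regions over 107 kb at Myo10, an actin motor of cell protrusions, among 8 strong distal regions in that span, and 6 over 32.5 kb beyond Tomm20, among 11 of which 2 were WT-only. Between the outermost members of a group, all 4 strong distal regions over 20.9 kb at Serpina12 were KO-only, as were all 3 over 12.8 kb at Ackr3, over 1.54 kb at Syne1 and over 2.85 kb at Hspb1, a small heat shock protein. Counted by nearest gene, Ackr3 had 6, Syne1 7 and Hspb1 4 strong distal regions.

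Among the genes with most KO-only regions, Tomm20, Pik3c3 and Myo10 had 6 each. Pik3c3, a lipid kinase of autophagy, had 13 strong distal regions in all, at 112 to 311 kb from its TSS for the KO-only ones. Serpina12, Dab2, Dscam and Zfp36l1 had 4 each, of 6, 19, 12 and 25 strong distal regions. Dscam is an adhesion protein best known in neurons, and Zfp36l1 encodes an RNA-binding protein that destabilises transcripts. Among genes with 3 each, the strongest regions were those of Ackr3, 1700021F07Rik and Syne1.

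Border macrophage genes had the highest share of KO-only regions among the gene lists. This list of 12 genes holds markers of the macrophages at the vessels and meninges of the brain. Of the 55 strong distal regions nearest to them, 7 were KO-only (12.7%, 6.30 to 24.02), against 2.07% over all strong distal regions, and they belonged to 4 of the genes. Dab2, the endocytic adaptor, had 4 of the 7. The strongest Dab2 region was intronic, 10.3 kb from the TSS, with 1.97 and 3.43 PPM, and another intronic one, 37.6 kb away, had 0.888 and 1.21. The remaining 2 were intergenic, at 243 kb with 0.901 and 1.24 and at 270 kb with 0.761 and 1.12, so nearest gene is a loose label for them. Clec12a, an inhibitory lectin receptor, had an intronic region with 0.800 and 1.45. The region nearest to F13a1, a transglutaminase of tissue macrophages, was intergenic at 54.7 kb and had 0.749 and 1.27, and that of Cd38, an enzyme that consumes NAD, had 0.635 and 1.04. Strong promoter peaks of border macrophage markers stood at 0 of 7 genes in WT and 4 of 7 in IRF8KO. Those promoters were of Mrc1, Cd163, Pf4 and Ms4a7, none of which was the nearest gene of a KO-only distal region. The direction of the KO-only regions is set by the rule, and a link between them and these promoters was not tested.

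The CXC chemokine genes on chromosome 5 held 6 KO-only regions in a short stretch, chosen for description after its values were seen. The chemokines Cxcl1 and Cxcl2 attract neutrophils, and Cxcl5 and Cxcl3 are their neighbours. In the stretch from 100 kb before Cxcl5 to 100 kb beyond Cxcl2 there were 24 merged regions, of which 6 were KO-only distal, 3 strong in all 4 libraries and 1 WT-only. A region 6.14 kb from Cxcl2 had 1.498 and 2.07 PPM. Those at 28.9 and 9.20 kb from Cxcl1 had 1.14 and 2.14, and 0.520 and 1.40, and both held AP-1 and CEBP letters.

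The other regions of the KO-only class in this stretch lay at the far side of Cxcl5, with 1.73 and 2.94 PPM at 58.8 kb, 0.800 and 1.48 at 27.5 kb, and 1.498 and 3.22 at 49.1 kb from Rassf6. The Cxcl2 promoter, which the rule did not use, had 0.809 and 0.716 PPM in WT and 4.04 and 5.19 in IRF8KO. Both IRF8KO values were above both WT values. A region 3.00 kb from Cxcl1 with weak WT rows of 0.383 and 0.286 had 1.55 and 2.39 in IRF8KO. The neighbouring Mthfd2l promoter did not follow, with 3.24 and 2.84 in WT and 2.32 and 3.38 in IRF8KO. Pf4, a marker on the border macrophage list, lies in the same stretch, and its promoter region had 0.447 and 0.327 in WT and 1.29 and 1.89 in IRF8KO.

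**Figure D4:**
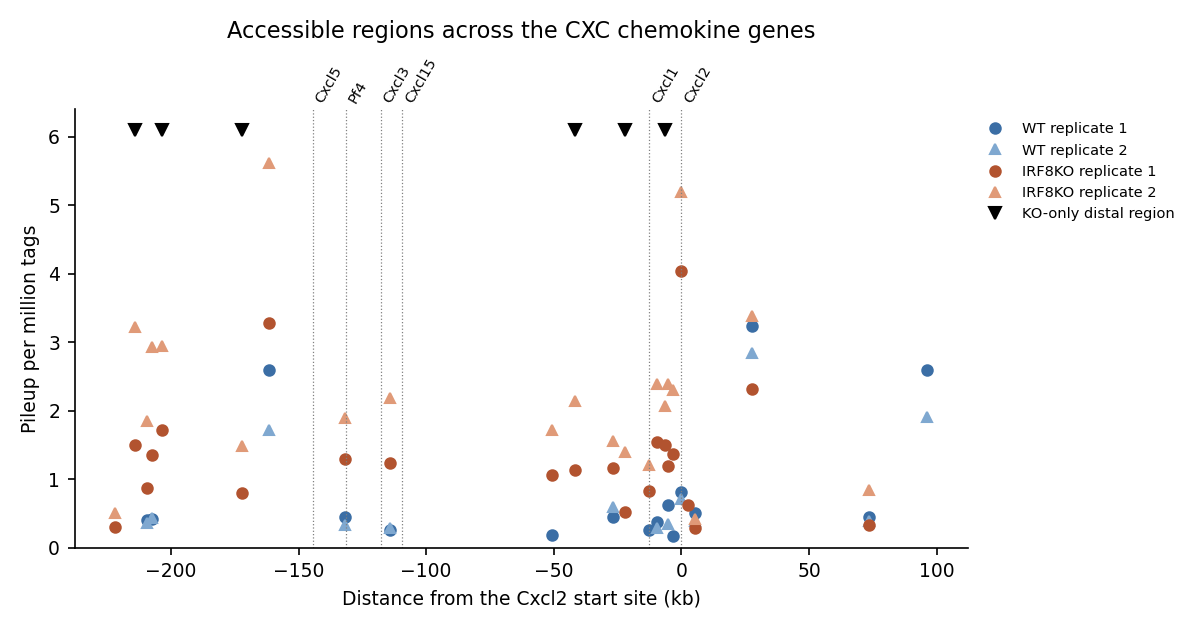
Pileup in PPM (vertical) of the merged regions across the CXC chemokine genes by distance from the Cxcl2 start site in kb (horizontal), 1 symbol per library with a row there, with dotted lines at start sites and black triangles over the 6 KO-only distal regions. The IRF8KO symbols at Cxcl2 lie at 4.04 and 5.19, above the WT symbols at 0.809 and 0.716, while symbols of both genotypes mix at the Mthfd2l promoter to the right.

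In the list of chemokines and cytokines, the 3 regions at Cxcl1 and Cxcl2 were the only members, of 66 strong distal regions (4.55%, 1.56 to 12.5). The lipid and lysosome list had 5 of 95 (5.26%, 2.27 to 11.7). These were at Rxra, a partner of lipid-sensing nuclear receptors (1.07 and 1.21 PPM), Abca1, a cholesterol exporter (0.711 and 1.03), Plin2, a coat protein of lipid droplets (0.698 and 0.936), Ppard (0.571 and 0.559) and Lamp1 (0.508 and 0.800). The Abca1 region had low −log10 q values of 2.85 and 5.11. The intervals of both lists include or nearly reach the share over all strong distal regions.

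Regulator genes of the RUNX, ETS and myeloid list had 9 regions of 355 (2.54%), a share near the 2.07% of all distal regions. Runx2, a RUNX factor best known from bone, had 3 of them, all intronic, with 0.698 and 1.36, 0.647 and 1.45, and 0.508 and 0.876 PPM. Mef2c and Maf are factors of macrophage identity. An intronic Mef2c region had 0.635 and 0.680, and an intergenic region 284 kb from Maf had 0.609 and 1.10. The rest had 0.508 to 0.584 in replicate 1, at 38.0 kb from the Runx1 TSS, 18.1 kb from Ets1, 58.2 kb from Mef2a and 1253 kb from Zeb2. The last was the nearest protein-coding start site only, and the lncRNA Gm13470 lay closer.

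Several lists had none. None of the 105 strong distal regions nearest to the AP-1 and ATF genes was KO-only, nor any of 26 at CEBP genes, 73 at IRF and STAT genes, 54 at toll-like and Fc receptor genes, 19 at monocyte and neutrophil genes, 27 at endothelial, 6 at neuron and 5 at B or T cell genes. At the share of all distal regions these lists would hold few, so the smaller ones say little. Homeostatic microglia genes had 2 of 161 (1.24%), at Sall3 (1.10 and 1.65 PPM) and in an exon of the fractalkine receptor gene Cx3cr1 (0.584 and 0.831).

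Disease-associated microglia genes had 2 of 80 (2.50%). The region at Clec7a, the beta-glucan receptor Dectin-1, had 1.13 and 1.98 PPM and held CEBP letters. It lay 0.982 kb from a Clec7a TSS and passed the distance rule because the annotation classes Clec7a as a polymorphic pseudogene, not as protein-coding. The region of Ctsb, a lysosomal protease, was intronic with 0.825 and 1.06. NF-kB genes had 2 of 78, at Nfkbiz (0.622 and 0.876) and Tnfaip3 (0.558 and 0.800), an inhibitor of that pathway. Integrin genes had 3 of 117, at Itga9, Itga5 and Itgb3. The NF-kB and integrin shares, each 2.56%, were near the 2.07% over all strong distal regions. The interferon-stimulated list had 1 of 26, at Ifitm3 (3.85%, 0.682 to 18.9). The astrocyte list had 1 of 32, at Gja1 (3.125%, 0.554 to 15.7), and the oligodendrocyte list 1 of 20, at Mbp (5%, 0.888 to 23.6). These intervals all include 2.07%, so lists with a single member say little.

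Shared distal regions near KO-only regions were compared next. The rule did not select them directly, but it is not independent of them at short range, since nearly all KO-only regions of low enrichment (164 of 172) lay within 5 kb of a region strong in all 4 libraries. In each library the log2 PPM value was centred on the median over all 10856 shared distal regions. The 1176 shared regions within 50 kb of a KO-only region had centred medians of 0.00 and -0.02 in WT and 0.29 and 0.17 in IRF8KO replicates 1 and 2. The mean was 0.23 ± 0.09 in IRF8KO and -0.01 ± 0.02 in WT (SD, n = 2 each), a difference of 0.24. The groups did not overlap, and the exact two-sided permutation test over libraries gave p = 0.333, the smallest that 2 against 2 allows. Without centring the medians were 1.66 and 1.27 PPM in WT and 1.24 and 1.80 in IRF8KO, and the genotypes overlapped.

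Among the 1176 neighbours, 505 (42.9%) had both IRF8KO libraries above both WT libraries after centring, beside 35.2% over all shared distal regions, and 257 (21.9%) had both below, beside 31.4%. The share was highest next to a KO-only region. Of 305 neighbours within 5 kb, 53.8% were higher and 18.4% lower in IRF8KO. From 50 to 100 kb the shares were 35.0% and 32.6%, near those over all shared distal regions. At 5 to 50 kb, with the closest neighbours left out, 341 of 871 (39.2%) were higher and 23.1% lower, and the difference of the medians was 0.18. Around the 553 KO-only regions with a fold enrichment of 5 or more in both libraries, 308 of 712 neighbours (43.3%) were higher, and the difference of the medians was 0.24. Within 5 kb of these 553, 61 of 111 were higher (55.0%), and 59 of 103 (57.3%) once those also within 5 kb of a region of low enrichment were left out.

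**Figure D5:**
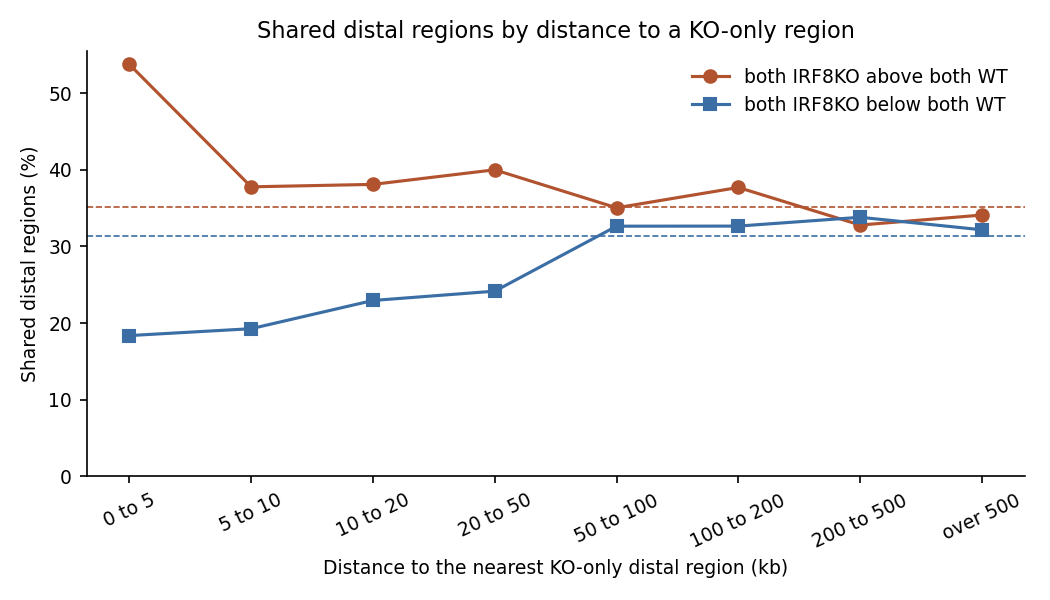
Share of shared distal regions (vertical, percent) with both IRF8KO libraries above or below both WT libraries after centring, by distance to the nearest KO-only distal region in kb (horizontal). Dashed lines mark the shares over all shared distal regions, 35.2% higher and 31.4% lower, and the higher share starts at 53.8% within 5 kb.

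The 10 neighbours with the greatest rise had WT values between 0.511 and 1.06 PPM. A region 0.290 kb from a KO-only region, at chr5:43048300-43049058 and nearest to Cpeb2, a translational regulator, had 0.618 and 0.552 PPM in WT and 5.13 and 8.03 in IRF8KO, a centred log2 difference of 3.66. One nearest to Clca4b had 0.895 and 0.511 in WT and 5.42 and 8.08 in IRF8KO, a difference of 3.49. One nearest to Tbc1d2b had 0.511 and 0.552 against 3.86 and 4.79. None of these overlapped between the genotypes, either before or after centring.

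Further neighbours of this kind lay nearest to Cd93, a surface glycoprotein of myeloid and endothelial cells (0.788 and 0.532 against 4.30 and 5.59), Mnat1, a subunit of a transcription-associated kinase (0.745 and 1.02 against 5.63 and 7.63), and Plin2 (0.831 and 0.511 against 3.38 and 5.77). Those nearest to Gm5426, Sdcbp, 1700021F07Rik and Ifnk had centred log2 differences of 2.76, 2.70, 2.56 and 2.36. The 10 were ranked by this difference, so their size is a description. Sdcbp and 1700021F07Rik each also had a KO-only region described above.

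Promoters of the nearest genes differed little as a group. Of the 615 genes, 418 (68.0%) had a promoter region strong in all 4 libraries, beside 69.2% of the genes nearest to a shared distal region. The 623 such promoter regions, of 11555 in all, had centred medians of -0.05 and -0.04 in WT and 0.00 and 0.00 in IRF8KO, a difference of 0.05 on the log2 scale (exact two-sided permutation p = 0.333, the smallest possible). Without IRF8KO replicate 1 the difference was 0.07 and the exact permutation p was 0.667. Of them 230 (36.9%) were higher and 123 (19.7%) lower in both IRF8KO libraries, beside 29.2% and 21.6% over all promoter regions. A centred log2 difference above 1 was seen in 29 (4.65%), beside 1.88% of all promoter regions.

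Single promoters differed in both directions. At Cxcl2 the centred log2 difference was 2.93. At Runx2 the promoter had 0.639 and 0.654 PPM in WT and 1.05 and 1.54 in IRF8KO, a centred difference of 1.32, and at 2010111I01Rik, an aminopeptidase gene, 4.28 and 3.35 against 6.27 and 9.18, a difference of 1.34. Differences near 1 were found at Dab2 (1.07), Fam129b (1.07) and Stap1 (1.01), where the uncentred values overlapped at Dab2 (1.21 and 0.818 against 1.18 and 2.34) but not at Stap1 (0.660 and 0.573 against 0.711 and 1.34). Litaf, an endosomal regulator of inflammatory genes with 3 KO-only regions, had a difference of 0.59.

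In the other direction, the promoters of Cx3cr1 (-0.44), Tomm20 (-0.42), Rxra (-0.31), Zfp608 (-0.31), Rad51b (-0.17) and Mef2a (-0.16) were below WT in both IRF8KO libraries after centring. Tomm20 thus had 6 KO-only distal regions and a lower promoter, with 2.66 and 1.86 PPM in WT and 0.939 and 1.84 in IRF8KO. At Klf2, Psat1, Cop1 and Myo10 the centred genotypes overlapped. The genes Nt5e, Ackr3, Edil3, Syne1 and Colec12 had no promoter region strong in all 4 libraries.

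A promoter that was itself KO-only was found at 18 of the 615 nearest genes (2.93%), beside 0.922% of the 9655 genes nearest to any strong distal region, and the Clec7a region is 1 of these by its position. WT-only promoters were found at 12 (1.95%), beside 2.06%. The strongest was that of Clec12a, with 1.69 and 3.97 PPM in IRF8KO. Sash1, an adaptor of receptor signalling, had KO-only promoter regions of 0.965 and 1.74 and of 0.952 and 1.75, Colec12 one of 0.977 and 1.42, and Mef2c one of 0.736 and 1.36. Of the 8 strong promoter regions of Mef2c, 2 were WT-only and 3 strong in all 4 libraries. Ncf1, a subunit of the phagocyte oxidase, had 0.571 and 0.725, Zc3h12a, an RNase that restrains inflammatory transcripts, 0.558 and 1.22, and Ctsc, a lysosomal protease, 0.546 and 0.544.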

How the data were processed

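ATAC-seq peak lists of 4 libraries, 2 WT and 2 IRF8KO, were used. Per the submitters' processing notes, the tools were bcl2fastq, Bowtie2, MACS2 2.1.1.20160309 and deepTools, and the build mm10. Per the file headers, peaks were called in each library without a control at p 0.01, with cut sites shifted by -37 bp and extended to 73 bp, which centres the signal on the Tn5 cut, and a local background of 10 kb. The deposited pileup is a signal of whole-number depth, unscaled. The deposited fold enrichment is a ratio to local background, and the deposited p and q values are on a −log10 scale. The headers state that q was not calculated, yet the column holds values.

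Rows were reduced to distinct intervals with their highest summit, and pileup was divided by the tags in the header. Overlap meant at least 1 bp. Start sites and gene models came from GENCODE M21, and sequence from GRCm38. The nearest gene is the nearest protein-coding start site, including polymorphic pseudogenes. For motifs, 22 letter patterns were searched, and 19 lists held 246 genes. Intervals are 95% Wilson intervals and cover counting only. The tests are exact permutations over libraries, and no test was made per region. The members, lists and tests were chosen with earlier results of these data known. Named were the 20 strongest regions by the lower IRF8KO value, 5 on each side of the threshold, up to 4 per gene list (all 9 of the RUNX, ETS and myeloid list and all 7 and 5 of the border macrophage and the lipid and lysosome list were added after their values were seen), the 10 genes with most regions, sequences of up to 8 of those 20 regions outside UTRs and chromosome 18, and the 10 neighbours with the largest rise. Other genes were named after their values were seen. Alternatives covered the threshold, scaling, distances, overlap, windows, chromosome X and each library left out. Scripts ran on Python 3.11.15 with numpy 2.4.6, pandas 2.3.3 and scipy 1.17.1, and were tested on simulated data.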

Additional observations from a re-analysis of the deposited data

Results flagged for a closer look

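Chromosome X was outside the rule, which used autosomes. The same criteria found 9 KO-only distal regions there among 638 strong distal regions (1.41%, 95% Wilson interval 0.744 to 2.66), beside 33 WT-only ones. The strongest lay 125 kb from Tmem28 with 1.79 and 3.14 PPM in the IRF8KO libraries, and 2 lay near Msl3, a subunit of a chromatin-modifying complex, with 0.533 and 1.01, and 0.647 and 1.18. The labels do not give the sex of the mice.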

How the results depend on the processing

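The number of KO-only distal regions depended most on the threshold and on 1 library. It was 725 as reported, 1112 at 0.4 PPM, 296 at 0.75, 164 at 1, 1481 with a fold enrichment of 5 in place of the pileup (553 of the 725 among them) and 479 beyond 5 kb of a TSS. Scaling pileup by the median over shared distal regions gave 1071, with 704 of the 725 among them. With 1 library left out the number ran from 806 to 1927, and the value of 1927 was that without IRF8KO replicate 1. The AP-1 share ranged from 25.4% to 28.5% with a library left out and was 20.6% in windows of 50 bp each side, against 7.13% of shared regions. The CEBP share ranged from 24.9% to 27.1% with a library left out, and was 36.0% at 1 PPM, 32.2% beyond 5 kb, and 15.2% and 31.9% in windows of 50 and 150 bp each side, against 6.52% and 16.7% of shared regions. The RUNX share ranged from 12.6% to 15.3%, and was 9.52% and 18.3% in those windows, against 4.81% and 10.8%. The intron share was 49.3% at 0.75, 45.7% at 1 PPM and 48.2% beyond 5 kb, and 52.7% to 55.9% with a library left out. The neighbour shift kept its direction in all 18 alternatives, 2 of them (regions of low enrichment left out, and neighbours at 5 to 50 kb) chosen after seeing the data, from 0.12 for neighbours within 100 kb to 0.31 without IRF8KO replicate 2, and was 0.16 without IRF8KO replicate 1. The promoter shift kept its direction in all 15, from 0.04 to 0.13, and left-out libraries gave 0.06 to 0.07, with an exact permutation p of 0.667 without IRF8KO replicate 1 and 0.333 in the others. The cause of these movements was not tested, and no permutation of so few libraries can pass 0.05. No paired analysis was possible because nothing in the labels ties a WT library to the IRF8KO library of the same number.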

Other observations

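Counts of all 7-letter words in the summit windows, chosen after the values were seen, gave the same leading letters without a fixed motif. TGACTCA occurred in 24.97% of KO-only and 9.82% of shared windows, and AACCACA in 15.0% and 8.18%. TGTGCAA, part of a CEBP element, occurred in 8.55% and 3.94%, and the run AAAAAAA in 13.8% and 8.17%. The words with the greatest deficit were of the ETS kind, with CTTCCTC in 17.9% against 33.2% and CACTTCC in 11.7% against 24.9%.

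The KO-only share of strong distal regions was 1.49% on chromosome 7 and 2.95% on chromosome 18, the lowest and the highest of the 19 autosomes. Within 10 Mb of Irf8 there were 12 KO-only regions among 458 (2.62%), and within 5 Mb 2 among 295 (0.678%). A further 1073 distal regions with no WT row were strong in 1 IRF8KO library and had a weak row in the other, and IRF8KO replicate 1 held the weak row in 1048 of them.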
